A study of Mus musculus with 9 samples.

Results

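The 42 genes described here are ATF4, transcription factors and regulators that act with it, and genes that make, move or load amino acids, taken by symbol from 55286 genes in mouse lung RNA-seq. All 42 were in the deposited tables. They fall into 12 regulators, 5 serine and one-carbon enzymes, 4 other amino acid enzymes, 8 amino acid transporters and 13 cytosolic tRNA synthetases. The class called regulators is mixed. Besides transcription factors it holds other genes of the response, among them Chac1, an enzyme, and Stc2, a secreted glycoprotein. The 9 libraries form 3 groups of 3. The E11.5 group is fresh lung from wild-type embryos at E11.5, when the airway has begun to branch. The Control and EPZ5676 groups are explants of such lungs after 72 h of culture, without or with EPZ5676. EPZ5676, or pinometostat, is an inhibitor of DOT1L, which places methyl groups on histone H3 at lysine 79. The labels state neither a dose nor whether replicate libraries were made from different embryos, so p-values measure only how far these libraries spread, which may be technical.

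ATF4 is a transcription factor whose protein is made mainly when the initiation factor eIF2 is phosphorylated, as happens when amino acids run short, when proteins misfold in the endoplasmic reticulum or when haem is scarce. Together with partners of the C/EBP family it binds composite elements near genes for amino acid import, serine and asparagine synthesis and tRNA charging. The same response also turns on its own brakes, such as Trib3 and Ppp1r15a. Much of the control of ATF4 is on translation, which RNA-seq does not measure.

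The composite element was searched as TGATGNAA, on both strands, in RefSeq windows from 250 bases before to 50 bases after annotated gene starts (GRCm38.p6). Of the 42 genes, 33 matched the table by symbol, and 13 of these, or 39.4%, held the motif. Among all 27025 symbols in the table the share was 4.51%. The motif was in 4 of 12 regulators, 0 of 5 serine and one-carbon enzymes, 2 of 3 other amino acid enzymes, 2 of 6 transporters and 5 of 7 tRNA synthetases in the table. A match describes letters in a window and does not show binding. The sites of 12 of these genes are shown because this element is the one ATF4 and its C/EBP partners are known to bind. Each line gives 30 bases 5′ to 3′, turned so that the motif reads TGATGNAA, with the motif in capitals.
Atf3, chr1:191183425-191183454, + strand: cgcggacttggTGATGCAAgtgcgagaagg
Chac1, chr2:119351038-119351067, - strand: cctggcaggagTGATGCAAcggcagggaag
Nupr1, chr7:126625562-126625591, + strand: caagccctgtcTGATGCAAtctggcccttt
Trib3, chr2:152344028-152344057, + strand: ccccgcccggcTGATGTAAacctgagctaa
Asns, chr6:7693214-7693243, - strand: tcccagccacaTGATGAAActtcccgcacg
Pycr1, chr11:120643833-120643862, - strand: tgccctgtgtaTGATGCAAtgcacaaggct
Slc1a4, chr11:20332699-20332728, + strand: caggctggagaTGATGCAAcgcaggaggca
Slc7a11, chr3:50443661-50443690, - strand: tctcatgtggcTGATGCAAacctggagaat
Slc7a11, chr3:50443642-50443671, + strand: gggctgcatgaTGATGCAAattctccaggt
Gars, chr6:55037960-55037989, - strand: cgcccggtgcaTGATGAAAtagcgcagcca
Iars, chr13:49682126-49682155, - strand: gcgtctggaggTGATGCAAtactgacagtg
Tars, chr15:11399655-11399684, + strand: agctaaccagcTGATGCAAcgggactcctg
Yars, chr4:129189895-129189924, + strand: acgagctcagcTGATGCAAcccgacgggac
Of those shown, the sites in Trib3, Yars and Iars began after the RefSeq start, and the others before it. Slc7a11 held a pair of sites on opposite strands, beginning at -66 and -47 from its start. The 250 bases upstream of 3 genes are given whole, for Chac1, almost silent in fresh lung, for Atf3, a partner of ATF4, and for Slc7a11, with its paired sites, in the direction of the gene and with the motif on either strand in capitals.
Chac1, chr2:119350992-119351241, + strand: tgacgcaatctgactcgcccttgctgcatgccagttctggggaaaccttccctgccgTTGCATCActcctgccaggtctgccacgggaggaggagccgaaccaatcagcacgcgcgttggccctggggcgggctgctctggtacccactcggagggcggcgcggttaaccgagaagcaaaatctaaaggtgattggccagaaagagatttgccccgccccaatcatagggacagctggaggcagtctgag
Atf3, chr1:191183334-191183583, - strand: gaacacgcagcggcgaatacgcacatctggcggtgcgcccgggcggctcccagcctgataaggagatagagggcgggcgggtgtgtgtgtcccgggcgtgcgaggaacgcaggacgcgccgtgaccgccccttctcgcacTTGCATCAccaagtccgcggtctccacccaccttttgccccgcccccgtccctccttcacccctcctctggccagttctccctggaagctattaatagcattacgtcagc
Slc7a11, chr3:50443614-50443863, - strand: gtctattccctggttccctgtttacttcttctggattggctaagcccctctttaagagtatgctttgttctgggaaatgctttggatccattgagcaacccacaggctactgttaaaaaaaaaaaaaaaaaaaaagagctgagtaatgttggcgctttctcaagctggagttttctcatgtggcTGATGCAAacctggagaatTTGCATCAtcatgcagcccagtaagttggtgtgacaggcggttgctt

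**Figure D1:**
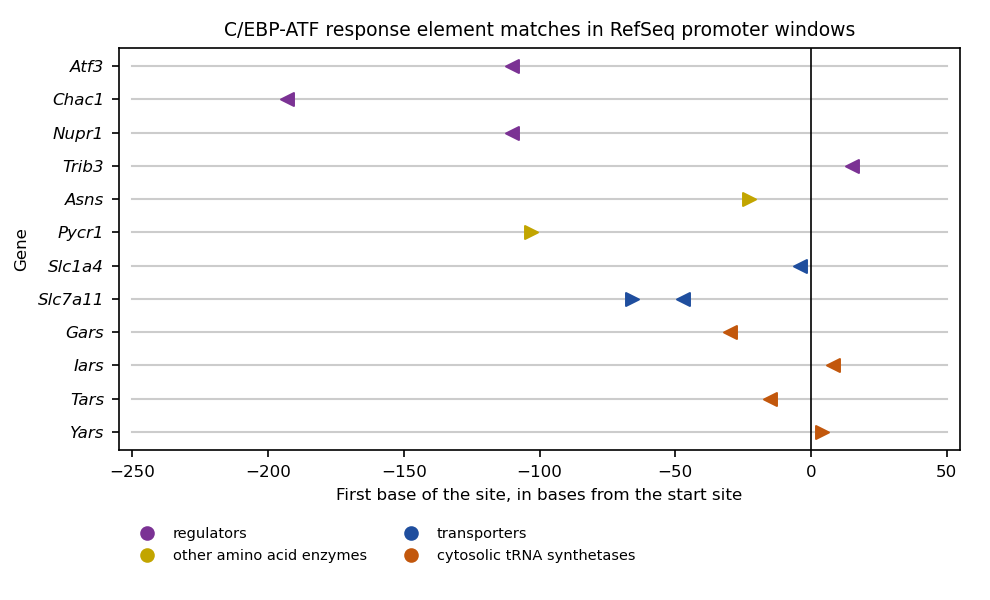
Position of each TGATGNAA match in bases from the RefSeq gene start (x axis) for the members that hold it (y axis), coloured by class, with triangles pointing right where TGATGNAA reads along the gene and left where it reads on the other strand. The 13 matches shown, in 12 genes, lie on both sides of the start, most of them before it.

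The libraries held 6509563 to 9861452 counts, and 37 of the 42 genes passed the minimum count of 10 in all 9. Chac1 and Nupr1 passed it in 0 fresh libraries and Atf3, Trib3 and Slc7a3 in only some, so these 5 entered the test through the cultured groups. The lung genes Nkx2-1, Epcam, Tbx4 and Foxf1 were present throughout, at 30.1 TPM or more. Some libraries stood apart. Control 1 held more RNA of liver, heart muscle and cartilage markers, with a summed level over 10 liver genes of 232.8 TPM against 1.32 to 25.1 TPM elsewhere. Control 3 was the lowest of the control libraries for 26 of the 42 genes, against 38.6% of all genes tested, and it held more RNA of 8 neural crest and neuron markers, at a summed 71.8 TPM against 19.4 to 35.4 TPM elsewhere. Xist, made in female cells, lay between 0.25 and 0.77 TPM in Control 3, EPZ5676 1 and EPZ5676 3, and at 72.5 TPM or more in the other libraries. The makeup of the tissue also moved with culture. Summed TPM in fresh and cultured lung ran from 434 to 480 and from 1112 to 2414 for 10 epithelial markers, and from 41.0 to 66.6 and from 216 to 424 for 10 macrophage markers. For 10 mesenchyme markers they ran from 717 to 857 and from 1001 to 1558. Of these 10 markers 4 were higher and 2 lower in controls than in fresh lung (edgeR, adjusted p under 0.05). Among the 10, Foxf1 was at 75.8 to 111.3 TPM in fresh lung and at 33.3 to 72.8 TPM in cultured lung. The 7 endothelial markers went from a summed 229 to 249 TPM to 18.9 to 90.1 TPM and the 9 red cell markers from 18130 TPM or more to 1203 TPM or less. The 6 mesothelium markers also set the cultured groups apart, at 73.7 to 110.2 TPM in controls and 133 to 207 TPM with EPZ5676. So did Nkx2-1, at 71.7 to 78.2 TPM in controls and 84.0 to 96.6 TPM with EPZ5676. Tbx4 was at 64.7 to 66.9 TPM in controls and 42.1 to 56.7 TPM with EPZ5676. Epcam, Foxf1 and the summed epithelial and mesenchyme markers overlapped between the cultured groups. The part of these differences in the results below was not tested, and in bulk RNA a change in cell number and a change per cell cannot be told apart.

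Whether reads were counted by strand is not given in the labels, and 12 of the 42 genes overlap exons of a gene on the other strand in GENCODE M21. Ddit3 and Mars overlap each other, Atf5 overlaps Nup62, Cebpb overlaps Tmem189, Psph overlaps Cct6a, Slc6a9 overlaps B4galt2, Hars overlaps Hars2 and Yars overlaps C77080, so reads from these pairs may not be told apart. Ddit3 also has a second gene model of the same symbol on its own strand, between which reads could be split. Atf4, Chac1, Trib3, Sesn2, Asns, Psat1, Slc7a3, Slc7a11 and Sars have no such overlap.

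In control explants 26 of the 42 genes rose against fresh lung and 2 fell, or 66.7% called, where 37.7% of all 15158 genes tested were called (21.1% higher and 16.6% lower; edgeR, adjusted p under 0.05). The 26 include the 5 genes that entered the test through the cultured groups. The 42 genes were chosen with earlier results of these data known, so their share called may partly reflect that choice. Most of the rises were among the regulators, where 11 of 12 rose, and the transporters, where 7 of 8 rose. The 11 include Chac1, Nupr1, Atf3 and Trib3 and the 7 include Slc7a3, which entered the test through the cultured groups. The counts and medians of these classes carry that way of entry. Of the 5 serine and one-carbon enzymes 4 rose, of the 4 other amino acid enzymes 1 rose, and of the 13 tRNA synthetases 3 rose and 2 fell. The median log2 fold change was 2.08 for regulators, 1.06 for transporters, 0.72 for serine and one-carbon enzymes, 0.39 for other amino acid enzymes and 0.11 for tRNA synthetases, against 0.02 over all genes. The transcription factors among the regulators, Atf3, Atf4, Atf5, Ddit3 and Cebpb, lay between 0.88 for Atf4 and 2.35 for Atf3. The synthetase median was 0.03 without Control 1 and 0.0061 without Control 2, the second below that of all genes. The libraries of the groups did not overlap in log2 CPM for 28 genes upward and 4 downward, against 26.5% and 24.9% of all genes. When log2(TPM + 1) was tested with limma in place of counts, 20 rose and 3 fell, and 28.4% of all genes were called.

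**Figure D2:**
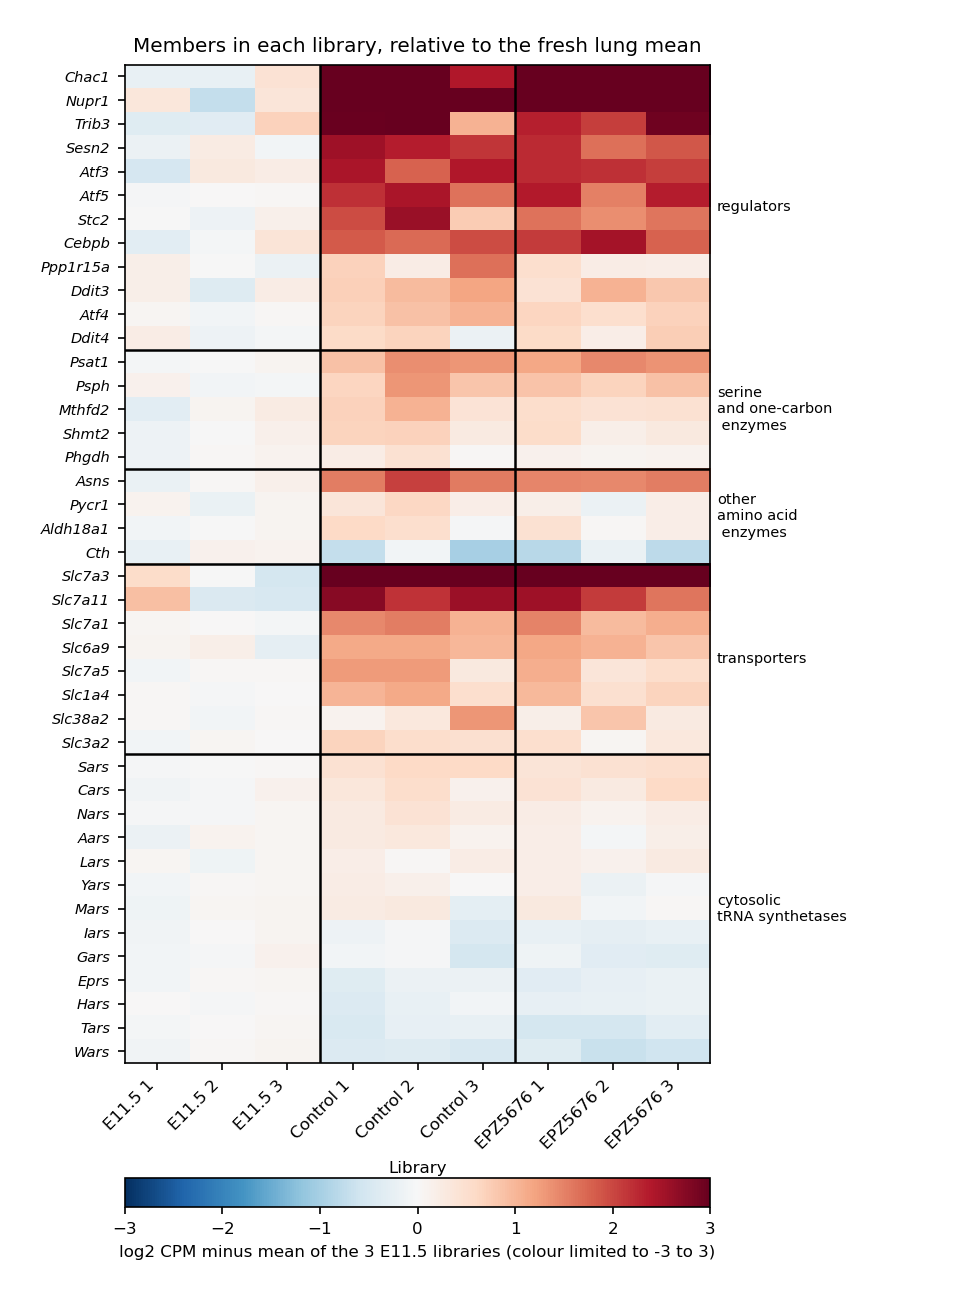
Heat map of the 42 genes (rows, by class) in 9 libraries (columns), coloured by log2 CPM minus the mean of the 3 fresh libraries and limited to -3 to 3. Most regulator and transporter rows are red in the 6 cultured libraries, with Ddit4 in Control 3 below fresh lung and Slc38a2 in Control 1 and Slc3a2 in EPZ5676 2 near white, while most tRNA synthetase rows stay near white.

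The genes of the regulator class most raised in culture were almost silent in fresh lung. Chac1, which breaks down glutathione, was listed at 0, 0 and 0.16 TPM in fresh lung and at 13.1, 13 and 1.25 TPM in Control 1, 2 and 3. Its fresh libraries held 1 count in all and the control libraries 211, a ratio of CPM of 182 (exact 95% interval 32.3 to 7220, counting error only). Such intervals, here and below, pool the libraries of a group and leave out how the gene entered the test. They are therefore no test of a rise. All control values lay above all fresh ones, with Control 3 the lowest of them. Nupr1, a small nuclear stress protein, was at 1.17, 0 and 0.69 TPM in fresh lung and at 28.4, 37.3 and 42.7 TPM in controls. It summed to 4 counts against 350, a ratio of 75.4 (29.2 to 278). Unlike Chac1, Nupr1 was high in Control 3.

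Trib3, a pseudokinase that holds ATF4 back, was at 0.99, 1.01 and 2.24 TPM in fresh lung. In controls it was at 13.1, 16 and 3.38 TPM, a log2 fold change of 2.81 ± 0.59 (SE). Trib3 and Atf3 entered the test through the cultured groups, so no p is given for them. Sesn2, a leucine sensor that restrains mTORC1, was at 2.85, 3.91 and 3.01 TPM and then at 21.1, 16.5 and 12.5 TPM, the smallest p of the 42 genes (2.39 ± 0.20, adjusted p = 1.97e-05). Atf3, a stress-induced partner of ATF4, was at 1.11, 2.68 and 2.78 TPM and then at 10.3, 5.64 and 8.8 TPM (2.35 ± 0.30). In all 3 genes the groups did not overlap, and Trib3 in Control 3 came close to the highest fresh library. Atf5, a related transcription factor, was at 17.3, 18.3 and 17.6 TPM and then at 88, 93.7 and 45.8 TPM (2.15 ± 0.27, adjusted p = 0.000319). Stc2, a secreted glycoprotein, was at 3.2, 3.32 and 1.9 TPM and then at 7.67, 13.3 and 3.49 TPM (2.01 ± 0.39, adjusted p = 0.0028). Both were lowest of the controls in Control 3.

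Atf4 itself rose by a smaller factor, from a higher level. It was at 122, 109 and 115 TPM in fresh lung and at 202, 208 and 206 TPM in controls (0.88 ± 0.11, or 1.84-fold; adjusted p = 0.000191), and the groups did not overlap. Cebpb, a C/EBP factor that pairs with ATF4, went from 5 ± 1.29 to 18 ± 2.11 TPM (mean ± SD, n = 3; 1.88 ± 0.25, adjusted p = 0.000261). Ddit3, which encodes the factor CHOP, went from 16.4 ± 4 to 31.5 ± 2.23 TPM (0.95 ± 0.24, adjusted p = 0.00963). Ppp1r15a, which encodes the GADD34 subunit that reverses eIF2 phosphorylation, passed with 0.99 ± 0.31 (adjusted p = 0.0311), with overlapping TPM. Without Control 3, where it was highest at 31.6 TPM, it was at 0.50 and did not pass (adjusted p = 0.059), and it was also lost when any fresh library was left out (adjusted p from 0.0564 to 0.105). Ddit4, an mTORC1 inhibitor, did not pass (0.40 ± 0.22, adjusted p = 0.185). Without Control 3, its lowest control at 25.5 TPM, it was at 0.62 and passed (adjusted p = 0.0138). The median of the class was 2.31 without Control 3.

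**Figure D3:**
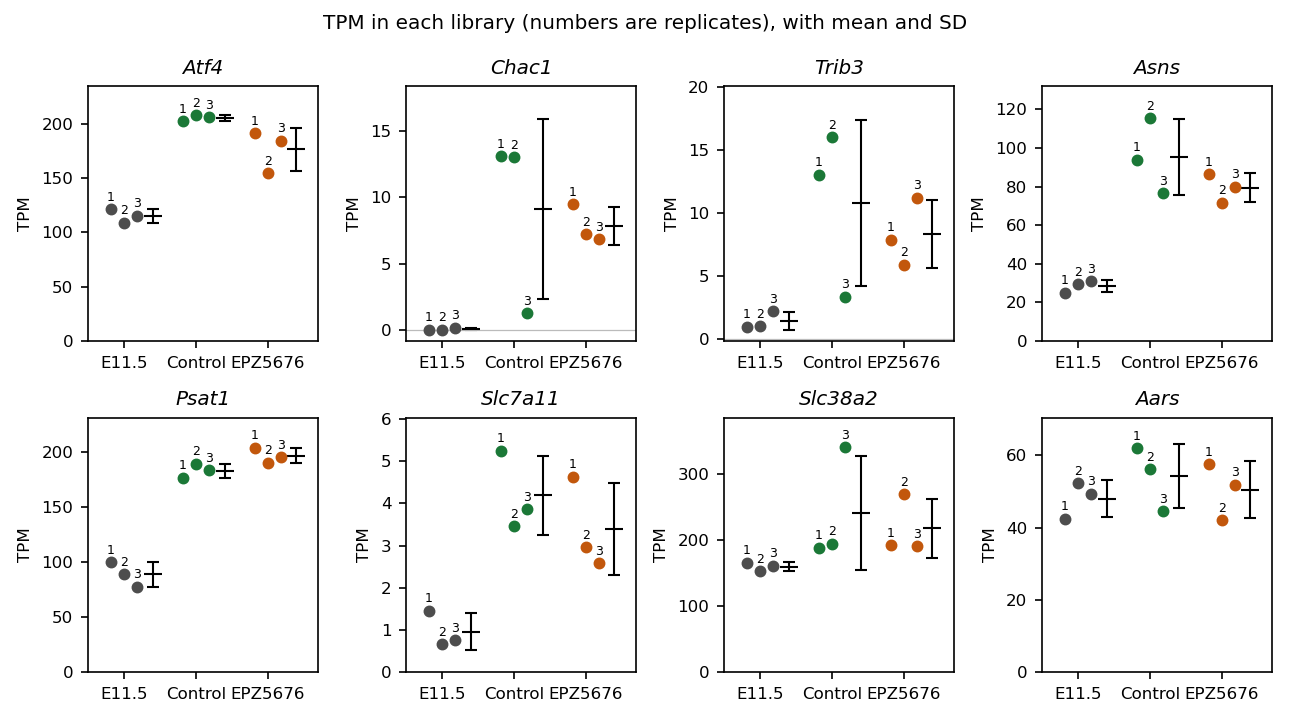
TPM (y axis) of 8 genes in each library of the 3 groups (x axis), with replicate numbers beside the points and the mean and SD to their right. Chac1 and Trib3 are low in Control 3, Slc38a2 is high there, and Atf4 and Psat1 are close together within controls.

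Psat1 and Psph, the later enzymes of serine synthesis, rose, while Phgdh, which opens the pathway, did not pass. Psat1 was at 99.97, 89.1 and 77.8 TPM in fresh lung and at 177, 189 and 183 TPM in controls (1.22 ± 0.14, or 2.32-fold; adjusted p = 0.000111). Psph was at 11.1, 9.39 and 9.39 TPM and then at 18.1, 26.3 and 15.8 TPM (0.97 ± 0.19, adjusted p = 0.00302). Neither overlapped between groups. Phgdh was at 109.9, 123 and 109 TPM and then at 144, 162 and 103 TPM, with Control 3 below all fresh libraries on that scale (0.25 ± 0.11, adjusted p = 0.103). Without Control 3 it was at 0.35 and passed (adjusted p = 0.0219).

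The mitochondrial enzymes that take one-carbon units from serine were higher in Control 1 and 2 than in Control 3. Mthfd2 was at 25.9, 35.6 and 37.3 TPM in fresh lung and at 55.1, 65 and 35 TPM in controls (0.72 ± 0.17, adjusted p = 0.00807). Shmt2 was at 44.8, 48.2 and 53.6 TPM and then at 85.3, 76.5 and 51.1 TPM (0.55 ± 0.14, adjusted p = 0.0106). In TPM Control 3 lay among the fresh libraries in both genes. In log2 CPM it lay just above them, at 5.67 for Mthfd2 and 6.18 for Shmt2. On log2(TPM + 1) neither passed with limma, with adjusted p = 0.0612 for Mthfd2 and 0.0683 for Shmt2.

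Of the other amino acid enzymes Asns, which makes asparagine, rose. It was at 25.1, 29.4 and 30.8 TPM in fresh lung and at 94, 116 and 76.4 TPM in controls (1.74 ± 0.15, or 3.33-fold; adjusted p = 2.17e-05), without overlap. The proline pathway genes did not pass. Aldh18a1, its first enzyme, was at 39.6, 39.2 and 38.7 TPM and then at 65.1, 52.8 and 33.8 TPM (0.39 ± 0.16, adjusted p = 0.0845), and passed without Control 3 at 0.56 (adjusted p = 0.00486). Pycr1, its last, was at 13.6, 11.6 and 19.2 TPM and then at 19.6, 17.7 and 11.2 TPM (0.40 ± 0.17, adjusted p = 0.0919). Cth, which makes cysteine from cystathionine, was the member with the most negative value at 16.6 ± 4.41 against 10.6 ± 4.8 TPM (-0.57 ± 0.26, adjusted p = 0.111), and passed without Control 2 at -0.87 (adjusted p = 0.0283).

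Among the transporters the largest rises were in carriers of cationic amino acids and cystine. Slc7a3, a carrier of arginine and lysine, was at 1.37, 0.91 and 0.45 TPM in fresh lung. In controls it was at 10.7, 18.7 and 8.13 TPM (3.72 ± 0.37), with no p given since it entered the test through the cultured groups. From 26 and 394 counts the ratio of CPM was 13.1 (exact 95% interval 8.78 to 20.2, counting error only). Slc7a11, the xCT exchanger that imports cystine for glutathione synthesis, was at 1.46, 0.67 and 0.77 TPM and then at 5.25, 3.46 and 3.86 TPM (2.41 ± 0.39, adjusted p = 0.00115). Without fresh replicate 1, its highest fresh library, it was at 3.07. Slc7a1, the widely expressed relative of Slc7a3, was at 8.36, 8.13 and 7.46 TPM and then at 24.8, 22.2 and 13.7 TPM (1.36 ± 0.16, adjusted p = 0.000148). These 3 did not overlap between groups in any library. The paired motif sites of Slc7a11 are among the sequences printed above.

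The fold changes of carriers of neutral amino acids and glycine were smaller. Slc7a5, the light chain of the LAT1 carrier of large neutral amino acids, was at 14.6, 15.9 and 15.5 TPM in fresh lung and at 43.5, 37.1 and 19.3 TPM in controls (1.02 ± 0.27, adjusted p = 0.0141). Without Control 1 it was at 0.88 and did not pass (adjusted p = 0.053). Slc1a4, which carries serine and alanine, was at 13, 12.5 and 12.6 TPM and then at 28.2, 27.1 and 15.1 TPM (0.92 ± 0.17, adjusted p = 0.00221). Slc6a9, a glycine transporter, passed at 1.09 ± 0.15 from counts (adjusted p = 0.000293), yet its TPM overlapped, at 13.6, 15.4 and 12.3 in fresh lung and 23.1, 17.3 and 14.3 in controls. On log2(TPM + 1) it was at 0.36 and did not pass (adjusted p = 0.198). Slc3a2, the heavy chain shared by LAT1 and xCT, was at 67.8, 62.2 and 75.9 TPM and then at 98.9, 78.8 and 74.2 TPM (0.57 ± 0.12, adjusted p = 0.00333), and did not pass on that scale (0.28, adjusted p = 0.152). Counts and TPM treat transcript length differently.

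Slc38a2, a sodium-coupled carrier of small neutral amino acids, was the transporter that did not pass (0.68 ± 0.30, adjusted p = 0.109). It was at 165, 153 and 161 TPM in fresh lung and at 188, 194 and 340.2 TPM in controls, so that all controls were higher and Control 3 stood far above the others. Without Control 3 it was at 0.21 (adjusted p = 0.361), and without Control 1 it passed at 0.90 (adjusted p = 0.0475). Control 3 was thus high for Slc38a2 and Ppp1r15a and low for Chac1, Trib3, Stc2 and Slc7a5. Without Control 3 the transporter median was 1.21.

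The cytosolic tRNA synthetases, which load amino acids onto their tRNAs, had 28.6 TPM or more in every library and fold changes nearer to 1 than the other classes. Sars, for serine, was at 121, 123 and 122 TPM in fresh lung and at 156, 161 and 135 TPM in controls, without overlap (0.55 ± 0.08, or 1.46-fold; adjusted p = 0.000488). Nars, for asparagine, passed at 0.32 ± 0.09 (adjusted p = 0.0146) although its TPM overlapped, at 144, 151 and 149 and then at 164, 192 and 133. It did not pass on log2(TPM + 1) (0.13, adjusted p = 0.497), without fresh replicate 2 (adjusted p = 0.0697) or without Control 2 (adjusted p = 0.0577). Cars, for cysteine, was at 41.7, 53 and 56.8 TPM and then at 71, 68.3 and 62.4 TPM (0.34 ± 0.12, adjusted p = 0.0474). It missed the threshold when any library but Control 3 was left out, with 0.24 and adjusted p = 0.174 at the lowest, without Control 2, with DESeq2 (adjusted p = 0.0653) and on log2(TPM + 1) (0.42, adjusted p = 0.0815). Wars, for tryptophan, fell from 43.9, 49.1 and 51.3 TPM to 44.9, 38.4 and 28.6 TPM (-0.44 ± 0.10, adjusted p = 0.00657) and Tars, for threonine, from 92.2, 102 and 95.9 TPM to 82.5, 75.9 and 76.7 TPM (-0.31 ± 0.09, adjusted p = 0.0256). Tars overlapped in no library but did not pass without fresh replicate 2, fresh replicate 3 or Control 1 (adjusted p = 0.0732, 0.0907 and 0.0825), and Wars did not pass on log2(TPM + 1) (adjusted p = 0.125).

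The other 8 synthetases did not pass. Aars, Lars, Yars and Mars, for alanine, leucine, tyrosine and methionine, lay between 0.11 and 0.22 on the log2 scale. Iars, Gars, Eprs and Hars, for isoleucine, glycine, glutamate with proline, and histidine, lay between -0.24 and -0.19. Eprs, 126 ± 6.4 TPM in fresh lung and 102 ± 8 TPM in controls, passed with DESeq2 (-0.25, adjusted p = 0.0275) and on log2(TPM + 1) (-0.30, adjusted p = 0.0412). Hars was 70.2 ± 2.53 TPM in fresh lung and 57 ± 1.81 TPM in controls without overlap, and passed without Control 3 at -0.31 (adjusted p = 0.0203) and on log2(TPM + 1) at -0.30 (adjusted p = 0.0458). Of the 5 synthetase genes whose windows held the motif, Tars fell and the other 4 did not pass.

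**Figure D4:**
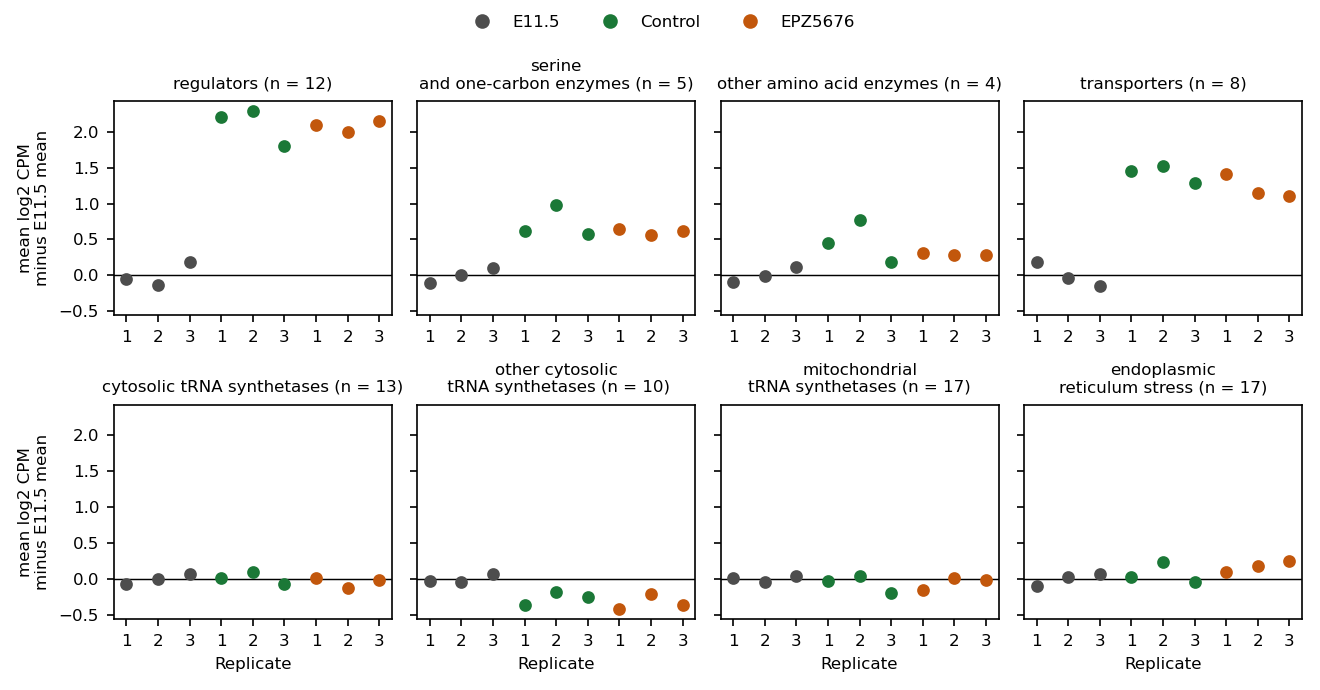
Mean log2 CPM of the 5 classes and of 3 further lists (panels) minus the mean of the fresh libraries (y axis), in each of the 9 libraries by replicate (x axis) and coloured by group. Regulators sit 1.80 to 2.29 above fresh lung in all 6 cultured libraries and tRNA synthetases between -0.12 and 0.10. The regulators include Chac1, Nupr1, Atf3 and Trib3, which entered the test through the cultured groups.

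Other genes were taken from lists of the pathway and its neighbours, also chosen with earlier results of these data known. Being listed does not show that ATF4 drives a gene here, which was not tested. The counts of these lists stand against 37.7% of all genes called (21.1% higher and 16.6% lower) and a median of 0.02. A named gene under the count minimum in some or all fresh or control libraries entered the test through the groups where it is high. For such genes the levels are given with no p, but they remain in the counts, shares and medians of their lists. Of 23 further ATF4 pathway genes tested 12 rose and 1 fell, or 56.5% called, with a median of 0.64. The 12 include Gdf15 and Adm2, which passed the count minimum in 0 fresh libraries. Gdf15, a stress hormone, was listed at 0 in all fresh libraries and at 2.42, 2.07 and 2.53 TPM in controls. It summed to 0 counts against 44, a ratio of CPM of at least 9.86 (the lower end of an exact 95% interval, counting error only). Cdkn1a, a cell cycle inhibitor, went from 2.62 to 4.45 TPM in fresh lung to 28.7 to 40.4 TPM (3.25 ± 0.29, adjusted p = 3.67e-05), and Adm2, a peptide hormone, was at 0.2 to 0.21 TPM in fresh lung and at 2.74, 2.82 and 0.36 TPM in controls. Upstream of ATF4, 2 of 16 sensors and initiation factors rose and 4 fell, or 37.5% called, which is close to the share of all genes (median -0.08). Eif2ak3, the endoplasmic reticulum kinase PERK, rose by 0.63 ± 0.13 (adjusted p = 0.00415), while the haem-regulated kinase Eif2ak1 fell (-0.61 ± 0.08, adjusted p = 0.000371), as did Eif2b3, a subunit of the eIF2 exchange factor (-0.58 ± 0.14, adjusted p = 0.00776). Of 17 endoplasmic reticulum stress genes 3 rose and 1 fell, or 23.5% called, below the share of all genes, with a median of 0.05. The stress sensor Atf6 was at 0.60 ± 0.10 (adjusted p = 0.00108), Sel1l, of protein disposal, at 0.39 ± 0.11 (adjusted p = 0.0183) and the chaperone Hsp90b1 at -0.45 ± 0.14 (adjusted p = 0.0267).

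Immediate early genes, which respond within minutes to growth factors and handling, rose in 11 of 15, or 73.3% called against 37.7% of all genes, with a median of 1.15. The 11 include Fos and Ier3, which entered the test through the cultured groups. Egr1 was at 3.4 to 5.28 TPM in fresh lung and at 57.4, 38.4 and 24.2 TPM in controls (3.35 ± 0.38, adjusted p = 0.000252). Fos, which passed the count minimum in 2 fresh libraries, was at 0.48 to 4.58 TPM in fresh lung and at 13.6, 15.9 and 11.9 TPM in controls. Ier3, which passed it in 0 fresh libraries, was at 1.21 to 2.14 TPM there and at 5.25, 8.99 and 17.7 TPM in controls. Their part in the rise of Atf3 and the other regulators was not tested.

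Genes of neighbouring steps moved in both directions, with shares called not far from the 37.7% of all genes. Of 17 other serine, glycine and folate genes 3 rose and 5 fell, or 47.1% called (median -0.19). The mitochondrial folate enzyme Aldh1l2 rose from 1.81 to 2.5 TPM to 11.8 to 21.7 TPM (3.37 ± 0.36, adjusted p = 0.000152), Sardh, which demethylates sarcosine, rose by 1.30 ± 0.25 (adjusted p = 0.0028), and Gldc, of the glycine cleavage system, fell (-1.83 ± 0.42, adjusted p = 0.00631). Of 18 other amino acid enzymes 3 rose and 5 fell, or 44.4% called (median -0.11). The 5 include Arg1 and Aspg. Aldh4a1, which breaks down proline, was at 1.04 ± 0.20 (adjusted p = 0.00277). Arginase Arg1 and asparaginase Aspg, which passed the count minimum in 0 control libraries, went from 1.64 ± 0.5 to 0.57 ± 0.22 TPM and from 2.63 ± 0.6 to 0.877 ± 0.025 TPM (mean ± SD, n = 3).

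Of 23 other amino acid transporters 10 rose and 2 fell, or 52.2% called against 37.7% of all genes (median 0.48). The 10 include Slc6a14 and Slc1a1, which passed the count minimum in 0 fresh libraries. Slc6a14, a broad carrier of neutral and cationic amino acids, was at 0 to 0.07 TPM in fresh lung and at 1.44, 2.51 and 2.76 TPM in controls. The glutamine carrier Slc38a5 reached 102.2 TPM in Control 3 against 27.6 and 42.7 TPM in Control 1 and 2 (2.13 ± 0.66, adjusted p = 0.0404), and the glutamate carrier Slc1a1 was at 0.51 to 0.79 TPM in fresh lung and at 1.36, 1.44 and 2.7 TPM in controls. Of 10 other cytosolic synthetases and their scaffold proteins 0 rose and 3 fell, where 16.6% of all genes fell (median -0.26), namely Kars at -0.60 ± 0.08 (adjusted p = 0.000234), Rars at -0.51 ± 0.13 (adjusted p = 0.0116) and Dars at -0.47 ± 0.11 (adjusted p = 0.0071). Of 17 mitochondrial synthetases 0 rose and 4 fell, or 23.5% called, also below the 37.7% of all genes, of which 16.6% fell (median -0.26). Among the 4 were Yars2 (-0.42 ± 0.14, adjusted p = 0.0341) and Tars2 (-0.42 ± 0.15, adjusted p = 0.045).

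With EPZ5676 none of the 42 genes passed against control explants. The background was 0% called of 15158 genes with edgeR, and the smallest adjusted p of a member was 0.653. At an unadjusted p under 0.05 there were 4 members, where 6.94% of all genes were. That count was 13 without Control 3, 0 without EPZ5676 2, 1 without Control 2 or EPZ5676 3, and 1 on log2(TPM + 1). DESeq2 called 0 members and 83 of all genes, or 0.548%, with 4 members at an unadjusted p under 0.05. The shares of all genes under that threshold are not given for these settings or for DESeq2. These counts therefore cannot be judged against a background. By sign 34 of the 42 genes were lower with EPZ5676, where 7697 of all 15158 genes were, with a median log2 fold change of -0.14, against 0.00 over all genes. The medians were -0.21 for transporters, with 8 of 8 lower, -0.20 for other amino acid enzymes, -0.18 for regulators, -0.16 for serine and one-carbon enzymes and -0.08 for tRNA synthetases. These medians moved with single libraries. Without Control 2, the highest control for 25 of 42 genes, they were -0.13, -0.08, 0.09, -0.03 and -0.02 in the same order, and without Control 3 they were -0.30, -0.33, -0.17, -0.24 and -0.12. The transporter median was -0.33 without EPZ5676 1 and -0.12 without EPZ5676 2, the regulator median -0.04 without Control 1 and the synthetase median -0.04 without EPZ5676 2. Mesothelium markers and Nkx2-1 were also higher with EPZ5676 in every library and Tbx4 was lower. The part of these differences was not tested. The libraries did not overlap in log2 CPM for 3 members downward (Asns, Pycr1 and Nars) and 0 upward, against 4.45% and 5.79% of all genes.

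The 4 members with an unadjusted p under 0.05 when all libraries were used were Nupr1, Atf4, Sesn2 and Slc3a2. Nupr1 was at 42.2, 67.3 and 83.8 TPM with EPZ5676 against 28.4, 37.3 and 42.7 TPM in controls (0.81 ± 0.32, adjusted p = 0.653), and the groups overlapped by a narrow margin. Atf4 was at 191, 154 and 184 TPM against 202, 208 and 206 TPM, all 3 below the controls on that scale (-0.26 ± 0.11, adjusted p = 0.684). In log2 CPM the groups overlapped, with EPZ5676 3 at 7.603 and Control 1 at 7.578. Without Control 3 the log2 fold change of Atf4 was -0.16 (adjusted p = 0.826). Sesn2 was at 16.5, 9.78 and 11.8 TPM against 21.1, 16.5 and 12.5 TPM (-0.42 ± 0.18, adjusted p = 0.691). Slc3a2 was at 82.3, 66.4 and 73.7 TPM against 98.9, 78.8 and 74.2 TPM (-0.26 ± 0.11, adjusted p = 0.704). Sesn2 and Slc3a2 overlapped between groups.

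The next members by p in each class overlapped between the groups in TPM. Asns was at 86.6, 71.7 and 79.9 TPM with EPZ5676 against 94, 116 and 76.4 TPM (-0.26 ± 0.14, adjusted p = 0.776), and at -0.08 without Control 2. Pycr1 was at 16.9, 9.55 and 14.8 TPM against 19.6, 17.7 and 11.2 TPM (-0.33 ± 0.17, adjusted p = 0.768) and Aldh18a1 at -0.14 ± 0.16 (adjusted p = 0.918). Mthfd2, Shmt2 and Phgdh were at -0.26 ± 0.17, -0.21 ± 0.14 and -0.14 ± 0.11. Slc7a5 was at 34.2, 18.5 and 23 TPM against 43.5, 37.1 and 19.3 TPM (-0.32 ± 0.26) and Slc1a4 at 26.1, 16.8 and 19.8 TPM against 28.2, 27.1 and 15.1 TPM (-0.19 ± 0.17). Nars, Tars and Sars were at -0.13 ± 0.09, -0.14 ± 0.10 and -0.10 ± 0.08. Psat1 differed in sign from its class, at 204, 190.4 and 196 TPM against 177, 189 and 183 TPM, without overlap on that scale (0.10 ± 0.13, adjusted p = 0.925). Ppp1r15a had the largest negative value, at 19.2, 11.6 and 13.6 TPM against 25, 14.8 and 31.6 TPM (-0.68 ± 0.31, adjusted p = 0.723). Chac1 and Trib3 were at 9.49, 7.21 and 6.82 TPM and at 7.9, 5.92 and 11.2 TPM, inside the range of the controls. In each of the 9 further lists 0 genes passed with edgeR or DESeq2, and 0 to 2 had an unadjusted p under 0.05. With edgeR 6.94% of all genes did.

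**Figure D5:**
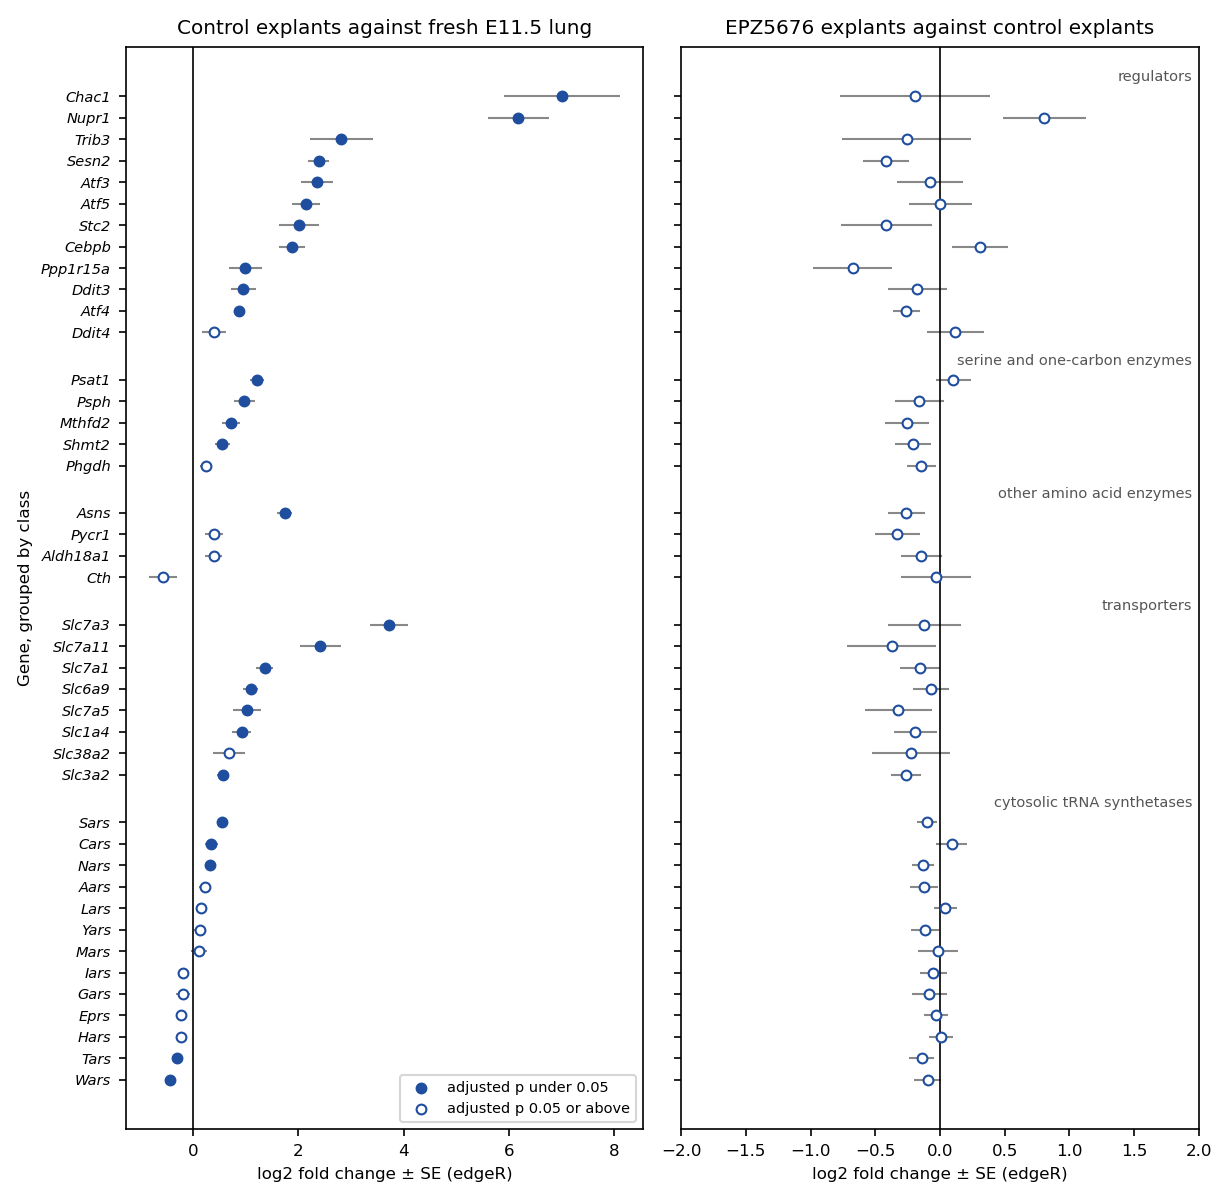
Log2 fold change ± SE (x axis) of the 42 genes (y axis, by class) for control explants against fresh lung (left) and EPZ5676 explants against controls (right, a different scale), filled where adjusted p was under 0.05. The fitted value of Chac1 rests on 1 count in fresh lung. Filled points are in the left panel, 26 to the right of 0 and 2 to the left, and there are 0 in the right panel. The 26 include Chac1, Nupr1, Atf3, Trib3 and Slc7a3, which entered the test through the cultured groups, so their fill is no evidence of a rise.

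EPZ5676 explants were also set against fresh lung, a comparison that shares the fresh libraries with the one above and so is not independent of it. There 20 members were higher and 3 lower, or 54.8% called, where 40.0% of all genes were (22.1% higher and 17.9% lower). The 20 include Chac1, Nupr1, Atf3, Trib3 and Slc7a3, which entered the test through the cultured groups. Of the regulators 10 of 12 rose (Ppp1r15a and Ddit4 did not pass), of the transporters 5 of 8, of the serine and one-carbon enzymes 2 of 5, of the other enzymes Asns alone, and of the synthetases Sars and Cars, while Tars, Wars and Eprs fell. Side by side, the log2 fold change against fresh lung was 0.88 in controls and 0.62 with EPZ5676 for Atf4, 2.39 and 1.97 for Sesn2, 1.74 and 1.48 for Asns, 1.22 and 1.32 for Psat1, 3.72 and 3.60 for Slc7a3 and 0.55 and 0.45 for Sars. Chac1 summed to 171 counts with EPZ5676 against 1 in fresh lung, a ratio of CPM of 155 (exact 95% interval 27.5 to 6160), and Nupr1 to 606 against 4, a ratio of 137 (53.4 to 506). Members that passed in controls but not here were Ppp1r15a, Shmt2, Mthfd2, Slc7a5, Slc3a2 and Nars, and Eprs passed here but not in controls, and for none of these 7 did the direct test of EPZ5676 against control pass. Ddit3 was lost without fresh replicate 2, EPZ5676 2 or EPZ5676 3 (adjusted p = 0.103, 0.085 and 0.0641), Cars without fresh replicate 1, fresh replicate 2 or EPZ5676 3 (adjusted p = 0.07, 0.0672 and 0.0771), and Eprs when any library but fresh replicate 1 was left out (adjusted p from 0.0592 to 0.12). On log2(TPM + 1) with limma 16 rose and 2 fell, where 31.0% of all genes were called. On that scale Slc1a4, Slc6a9, Cars, Sars and Wars did not pass (adjusted p = 0.0549, 0.126, 0.0736, 0.0509 and 0.0751).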

How the data were processed

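RNA-seq was made from 9 mouse lung samples, from TRIzol total RNA with the Vazyme VAHTS Universal V8 kit, per the labels' protocols. The authors deposited expected counts per gene and TPM, made with RSEM, Bowtie2 and the build mm10, per the submitters' processing notes, which give no versions or roles. All 55286 symbols and identifiers matched GENCODE M21, and 0 other columns of sample values were present. Expected counts were rounded. Genes were filtered with filterByExpr (minimum count 10, 15158 left), scaled by TMM and fitted over all 9 libraries with edgeR 4.0.16 (legacy robust quasi-likelihood F test, two-sided, 6 residual degrees of freedom) in R 4.3.3, with Benjamini-Hochberg adjustment over all genes tested and calls at an adjusted p under 0.05. Standard errors were derived as the log2 fold change over the root of F. A prior count of 2 entered log2 CPM. Alternatives used DESeq2 1.42.0, limma 3.58.1 on log2(TPM + 1) and log2(TPM + 0.1), other scalings and filters, 6-library fits, a replicate block and leaving out each library. No 2 replicates had counts alike within sampling noise. The tools were tested on simulated data. Libraries held 6509563 to 9861452 counts, and intervals cover counting error only.

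The members and lists were chosen with earlier results of these data known. Every member is named. Values in each library are given for up to 7 members a class, by largest change among those that passed in controls against fresh lung and then by smallest p with EPZ5676, and up to 3 passed genes with the largest change are named from each list. The values in each library of Slc38a2, of Ppp1r15a, Psat1, Chac1 and Trib3 with EPZ5676, and the genes set side by side against fresh lung, were chosen after their values were seen, as was Xist. A few items that these rules take are not reported here.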

Additional observations from a re-analysis of the deposited data

How the results depend on the processing

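In controls against fresh lung 26 members rose. The count was 20 to 26 over the other scalings, filters, tools and fits, and 23 to 28 when a library was left out. Of all genes, 17.5% to 41.6% were called in either direction over these alternatives. With a library left out 25.3% to 36.5% were. The count of falls, 2, was 4 with upper-quartile scaling, 1 without a filter and 1 to 3 when a library was left out. Against fresh lung with EPZ5676, 20 rose (16 to 25 over the alternatives, 18 to 21 with a library left out). There 3 fell, or 7 in the fit to 6 libraries, and 2 to 3 with a library left out. Of all genes 19.1% to 46.9% were called over the alternatives, most of them in the fit to 6 libraries. With a library left out 28.2% to 34.7% were. With EPZ5676 against control 0 members passed in every alternative, where 0 to 0.548% of all genes did. Nars there was reversed on TPM, at 0.00566 on log2(TPM + 1) and 0.00577 on log2(TPM + 0.1). The cause of these changes was not tested. Chac1 was not tested in the 6-library fit of controls and fresh lung, where it fell under the filter. Depth limits Chac1, Nupr1 and Slc7a3 in fresh lung.

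The labels do not say whether the replicate numbers pair the libraries. The correlation of same-numbered deviations was 0.457, 0.079 and -0.047 between EPZ5676 and control, and between -0.102 and 0.030 in the comparisons with fresh lung. Between EPZ5676 and control libraries of different numbers it ran from -0.361 to 0.265. So few values cannot decide whether the numbers pair the libraries. With the replicate block 24 members rose and 4 fell in controls, 0 passed with EPZ5676 against control, and 20 rose and 4 fell with EPZ5676 against fresh lung. Of all genes 37.4%, 0.0066% and 39.8% were called, in the same order.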
